A study of Mus musculus with 192 samples.

Results

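Of the 23481 deposited gene symbols, 5 are described here: Clec4e, Clec4d, Clec4n, Clec5a and Clec7a, which encode C-type lectin receptors of myeloid cells. They were taken by name from the table of counts, over all 64 groups, and all 5 were among the 4720 genes that passed the filter on low counts. C-type lectin receptors bind sugars, glycolipids and related structures on fungi, mycobacteria and damaged cells through an extracellular lectin domain. Clec4e (Mincle) recognises the mycobacterial cord factor, Clec4d (MCL) is its close relative and partner, and Clec4n (Dectin-2) binds fungal mannans; these receptors carry no long signalling tail and use the adaptor chain encoded by Fcer1g. Clec5a (MDL-1) uses the adaptor encoded by Tyrobp. Clec7a (Dectin-1) binds the beta-glucan of yeast cell walls and carries its own tyrosine motif, so that it recruits the kinase Syk directly. Downstream of Syk, the Card9, Bcl10 and Malt1 proteins lead to NF-kB.

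The libraries come from bone marrow-derived dendritic cells (BMDCs), which are grown from marrow with the growth factor GM-CSF (15 ng per mL). The donors were female C57BL/6J mice of 6 to 8 weeks, and 100000 cells per well were stimulated for 6 hours. The control group is named Ctrl, and all groups share strain, sex, culture and time. The 7 ligands, given alone, in all 21 pairs and in all 35 triplets, are PAM, LPS (lipopolysaccharide of Gram-negative bacteria), HMW, Zymosan (labelled as depleted; zymosan is a yeast cell wall preparation), SeV, cGAMP (labelled 3',3'-cGAMP, a cyclic dinucleotide) and CpGB. The labels give no doses, so no statement on strength per dose can be made. Each group has 3 libraries. Nothing says that they come from separate mice or cultures, so p-values measure the spread between these libraries, which may be technical. GM-CSF cultures are mixed, and the counts are of whole wells.

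Total counts of unique molecular identifiers (UMIs, 1 per original cDNA molecule) ran from 46564 to 610234, with a median of 171616.5, and the Ctrl libraries held 61823 to 89530. Levels are given as CPM, the UMI counts of a gene scaled to a common library size with TMM factors. Of the dendritic cell markers, Itgax was at 421 CPM and H2-Aa at 2126 CPM in Ctrl, while Zbtb46 was at 0 and Flt3 at 4.62 CPM. Of the macrophage markers, Csf1r was at 1718 CPM and Mertk at 0 in Ctrl. The markers of neutrophils summed to 739 to 983 CPM in the Ctrl libraries and to group means of 638 to 1084 CPM over the 64 groups, with S100a8 and S100a9 detected and Mpo and Elane at 0 in Ctrl. The markers of lymphocytes, and of mast cells and basophils, summed to at most 7.76 and 12.6 CPM in any group mean.

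All 5 genes lie on mouse chromosome 6 (GRCm38, GENCODE). Clec4n (chr6:123229843-123247021, plus strand), Clec4d (chr6:123262111-123275265, plus strand) and Clec4e (chr6:123281789-123289870, minus strand) are neighbours within 60028 bases. A gap of 15089 bases separates Clec4n from Clec4d, and 6523 bases separate Clec4d from Clec4e, whose ends face each other. Clec7a (chr6:129461591-129472779, minus strand) and Clec5a (chr6:40574894-40585821, minus strand) lie apart. GENCODE types Clec7a as a polymorphic pseudogene and the other 4 as protein coding, while RefSeq types Clec7a as protein coding too.

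The 250 bases before the RefSeq start site (GRCm38.p6) are shown for 3 of the genes: Clec4e and Clec7a because they changed in opposite directions, and Clec4d because it is the neighbour of Clec4e and changed least. Each is written 5′ to 3′ on the strand of the gene. Capitals mark matches, on either strand, to the C/EBP letters TTNNGNAA and the ETS letters GAGGAA.
Clec4e, chr6:123289872-123290121, minus strand: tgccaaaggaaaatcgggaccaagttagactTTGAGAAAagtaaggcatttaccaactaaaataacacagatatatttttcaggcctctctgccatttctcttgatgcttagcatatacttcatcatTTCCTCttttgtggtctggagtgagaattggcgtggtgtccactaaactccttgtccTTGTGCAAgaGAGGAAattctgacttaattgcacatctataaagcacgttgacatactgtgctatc
Clec4d, chr6:123261857-123262106, plus strand: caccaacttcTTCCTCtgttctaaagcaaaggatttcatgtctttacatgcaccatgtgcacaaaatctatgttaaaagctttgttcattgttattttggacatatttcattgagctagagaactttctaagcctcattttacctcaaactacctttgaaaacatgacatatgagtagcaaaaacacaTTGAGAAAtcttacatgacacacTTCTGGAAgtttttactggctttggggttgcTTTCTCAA
Clec7a, chr6:129472780-129473029, minus strand: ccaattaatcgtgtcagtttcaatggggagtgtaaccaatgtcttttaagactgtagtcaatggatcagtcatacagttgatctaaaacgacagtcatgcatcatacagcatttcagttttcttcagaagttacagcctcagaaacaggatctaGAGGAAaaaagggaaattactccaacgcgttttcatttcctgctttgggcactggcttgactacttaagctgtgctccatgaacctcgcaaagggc

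The Clec4e window holds 2 C/EBP matches, the nearer one (TTGTGCAA) at -66 to -59 from the start site, and 2 ETS matches. The Clec4d window holds 3 C/EBP matches and 1 ETS match. The Clec7a window holds no C/EBP match and 1 ETS match at -96 to -91. Clec5a, not printed, has 1 C/EBP and 2 ETS matches. Among 32851 windows of this length, 36.8% hold the C/EBP letters and 23.3% the ETS letters, so both are common. The letters GGGNNNNNCC (NF-kB, in 45.8% of windows), TGANTCA (AP-1, 6.75%) and GAAANNGAAA (the interferon-response element, 2.98%) had no match in the windows of these 4 genes. These matches describe the letters and were not tested for binding.

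With single ligands the 5 genes took different courses. Clec4e rose with PAM, Zymosan, LPS, CpGB and cGAMP. Clec7a fell with PAM, LPS and CpGB, and Clec4n fell with LPS. Clec4d did not reach the fold threshold with any ligand, and Clec5a rose with PAM, cGAMP and Zymosan from a level of few counts. A gene is called changed here at an adjusted p under 0.05 (edgeR's quasi-likelihood test, Benjamini-Hochberg over the 4720 genes) with a log2 fold change of at least 1 in size.

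**Figure D1:**
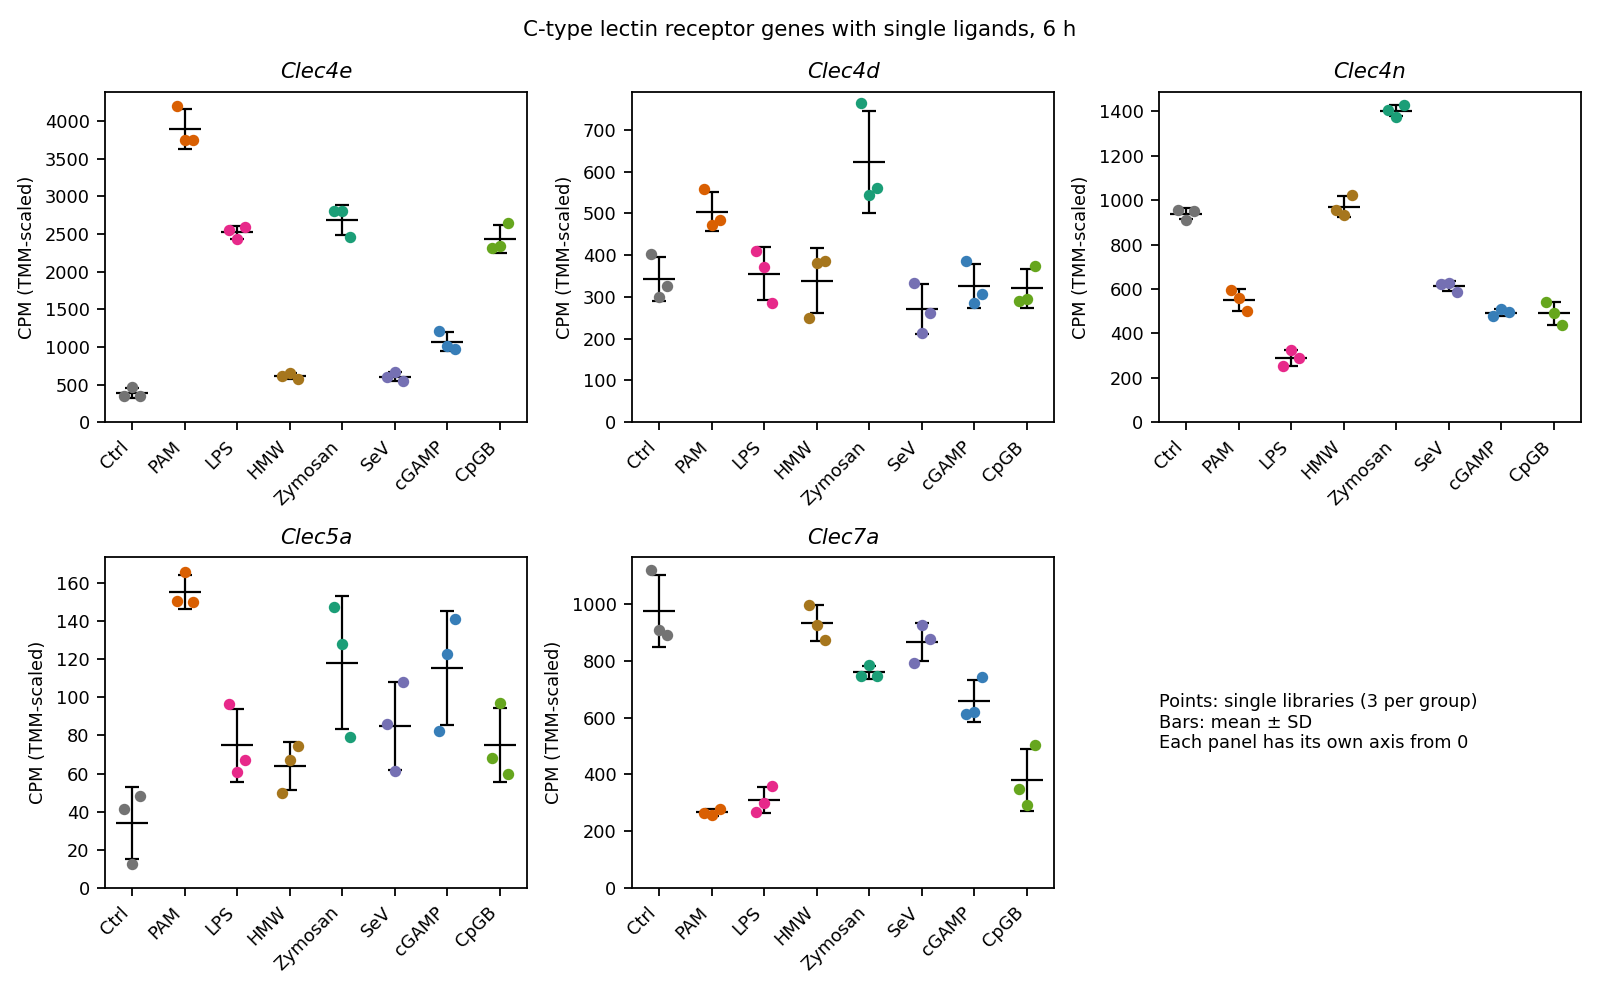
CPM of the 5 genes (vertical axes, each from 0) in Ctrl and with the 7 single ligands (horizontal axes). Points are the 3 libraries of a group and bars the mean ± SD. Clec4e libraries with PAM sit between 3739 and 4192 CPM against 346 to 461 CPM in Ctrl, while Clec7a libraries with PAM sit at 256 to 278 CPM against 893 to 1122 CPM.

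Clec4e stood at 346, 461 and 346 CPM in the 3 Ctrl libraries and at 4192, 3740.4 and 3739 CPM with PAM. Every PAM library was far above every Ctrl library, and the log2 fold change was 3.34 (SE 0.145, adjusted p = 1.28e-56). In the PAM comparison 8.01% of tested genes were called higher. In these whole-well libraries, a change in the share of cells of one type and a change in RNA per cell cannot be told apart. The summed neutrophil markers were at a mean of 1051 CPM with PAM against 739 to 983 CPM in Ctrl, and the summed macrophage markers at 6417 CPM against 6302 to 6827 CPM. Their part in the result was not tested.

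Zymosan gave 2798, 2803 and 2459 CPM of Clec4e (log2 fold change 2.80, adjusted p = 6.99e-44; 4.43% of genes called higher). LPS gave 2546, 2427 and 2591 CPM (2.72, adjusted p = 2.61e-43; 14.6% called higher). CpGB gave 2309.6, 2344 and 2642 CPM (2.67, adjusted p = 1.44e-41; 10.8% called higher). The groups with these 3 ligands overlapped each other and lay below PAM. With cGAMP the libraries held 1210.4, 1017 and 976 CPM (1.47, adjusted p = 3.59e-15; 11.7% called higher). The summed macrophage markers were at means of 5105 CPM with Zymosan, 5275 CPM with cGAMP and 5509 CPM with SeV, below the 6302 to 6827 CPM of the Ctrl libraries. The summed markers of dendritic cells and antigen presentation were at 6202 to 6690.0 CPM in the Ctrl libraries and at means of 7696 CPM with LPS, 7454 CPM with PAM, 7414 CPM with cGAMP, 7377 CPM with CpGB, 7105 CPM with Zymosan and 6772 CPM with SeV, all above that range. With HMW the mean was 6619 CPM, within it, while the summed macrophage markers with HMW were at 5959 CPM, below their Ctrl range. The part of these markers in the changes of the 5 genes was not tested.

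HMW and SeV gave the smallest differences for Clec4e. Its 3 libraries with HMW held 607, 650.2 and 576 CPM (log2 fold change 0.68, adjusted p = 0.00927), and those with SeV held 602, 667 and 549 CPM (0.65, adjusted p = 0.00246). All 6 libraries were above all 3 Ctrl libraries, but the size was under the fold threshold. At an adjusted p under 0.05 alone, 1.19% of tested genes were higher with HMW and 12.2% with SeV.

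The order of Clec4e over the single ligands was PAM, Zymosan, LPS, CpGB, cGAMP, HMW, SeV, with Ctrl lowest. PAM exceeded its neighbour Zymosan by 0.54 on the log2 scale (adjusted p = 2.34e-05), and cGAMP lay below CpGB by a log2 difference of -1.20 (adjusted p = 4.04e-18). In the PAM against Zymosan comparison 13.9% of genes differed, and in cGAMP against CpGB 19.6%. Zymosan against LPS (adjusted p = 0.596), LPS against CpGB (adjusted p = 0.882) and HMW against SeV (adjusted p = 0.939) did not pass the test, and these neighbours lay within their spread. HMW was below cGAMP by a log2 difference of -0.79 (adjusted p = 1.77e-07; 21.8% of genes differed).

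Clec4d, the partner of Clec4e, stood at 402, 299 and 326 CPM in Ctrl. With Zymosan it was at 764, 544 and 559.8 CPM, above every Ctrl library, and the log2 fold change was 0.84 (SE 0.207, adjusted p = 0.00198). With PAM it was at 558, 473 and 483 CPM (0.56, adjusted p = 0.0450). By p alone, 6.23% of genes were higher with Zymosan and 9.68% with PAM. Both differences passed the test on p and not the fold threshold. After thinning of every library to the smallest total they were 0.40 with Zymosan (adjusted p = 0.553) and 0.28 with PAM (adjusted p = 0.641), and with no filter on low counts the Zymosan difference of 1.02 passed the fold threshold. The other 5 ligands gave group means of 271 ± 60.3 CPM (SeV) to 356 ± 62.99 CPM (LPS), which overlapped Ctrl, with adjusted p from 0.333 to 0.994. Zymosan exceeded SeV by 1.19 (adjusted p = 5.85e-08; 25.3% of genes differed), the largest difference between single ligands for this gene, and Zymosan and PAM did not differ at the threshold (adjusted p = 0.332).

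Clec4n, which binds mannans, was at 956, 910.5 and 951 CPM in Ctrl and at 253, 327 and 291 CPM with LPS. The groups lay far apart, and the log2 fold change was -1.68 (SE 0.179, adjusted p = 3.56e-16). In the LPS comparison 9.60% of genes were called lower. With LPS the summed macrophage markers were at a mean of 5119 CPM against 6302 to 6827 CPM in Ctrl and the summed neutrophil markers at 1084 CPM against 739 to 983 CPM, and their part in the falls of Clec4n and Clec7a was not tested. CpGB (491 ± 52.7 CPM, SD, n = 3), cGAMP (494 ± 16.0 CPM), PAM (552 ± 48.8 CPM) and SeV (612 ± 22.6 CPM) all had lower libraries than Ctrl, with log2 differences of -0.96, -0.92, -0.77 and -0.62 that passed the test on p (adjusted p at most 0.00245) and not the fold threshold. By p alone, 8.92% of genes were lower with CpGB, 8.16% with cGAMP, 7.78% with PAM and 7.25% with SeV. With RLE factors CpGB (-1.06) and cGAMP (-1.04) passed the fold threshold too, and with no filter on low counts SeV (-0.41) did not pass the test (adjusted p = 0.233).

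Zymosan went the other way for Clec4n, with 1408, 1376 and 1428 CPM. All 3 libraries were above all 3 Ctrl libraries, and the log2 fold change was 0.58 (SE 0.151, adjusted p = 0.00384), under the fold threshold. HMW (970.5 ± 46.5 CPM) overlapped Ctrl (adjusted p = 0.986). Between single ligands, LPS lay below Zymosan by a log2 difference of -2.26 (adjusted p = 1.69e-30; 30.4% of genes differed).

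Clec7a, the beta-glucan receptor, was at 1122, 910.5 and 893 CPM in Ctrl. With PAM it was at 262, 256 and 278 CPM (log2 fold change -1.86, SE 0.184, adjusted p = 4.85e-18; 5.89% of genes called lower). LPS gave 268, 299 and 358 CPM (-1.63, adjusted p = 2.52e-15) and CpGB gave 349, 291 and 503 CPM (-1.32, adjusted p = 5.23e-11; 6.27% called lower). These 9 libraries lay below all Ctrl libraries. With CpGB the summed macrophage markers were at 5373 CPM. With cGAMP Clec7a was at 659 ± 72.7 CPM (-0.55, adjusted p = 0.00779), under the fold threshold. Without replicate 1 of all groups that difference was -0.34 (adjusted p = 0.268).

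Zymosan, which contains the ligand of the Clec7a protein, gave 745, 787 and 746 CPM. These libraries lay below those of Ctrl, but the log2 difference of -0.35 did not pass the test (adjusted p = 0.191). HMW (933 ± 62.2 CPM, adjusted p = 0.975) and SeV (866 ± 67.8 CPM, adjusted p = 0.579) overlapped Ctrl. PAM and LPS, the lowest neighbours, did not differ at the threshold (adjusted p = 0.430), and PAM against CpGB missed it narrowly (log2 difference -0.55, adjusted p = 0.0520).

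Clec5a was measured with few counts: 3, 1 and 5 UMIs in the Ctrl libraries. They correspond to 41.6, 12.5 and 48.0 CPM. PAM gave 151, 166 and 150.0 CPM (log2 fold change 2.13, SE 0.452, adjusted p = 7.48e-05), cGAMP gave 82.5, 123 and 141 CPM (1.74, adjusted p = 0.00339) and Zymosan gave 147, 128 and 79.3 CPM (1.66, adjusted p = 0.0139). All libraries with these 3 ligands were above Ctrl. For SeV (1.32, adjusted p = 0.0551), CpGB (1.09, adjusted p = 0.128), LPS (1.04, adjusted p = 0.124) and HMW (0.90, adjusted p = 0.671) the difference was not detectable at this depth. The Zymosan call was lost without Ctrl replicate 2 (1.30, adjusted p = 0.129), without Zymosan replicate 1 (adjusted p = 0.0522) or replicate 2 (adjusted p = 0.0561) and with DESeq2 (adjusted p = 0.0664), and after thinning to equal totals only 1 of the 3 ligands was called.

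Over the 63 conditions, which all share the same 3 Ctrl libraries, Clec4e was called higher in 61. The background over all genes and conditions was 14.3% of tests called higher and 9.03% called lower. The 2 conditions in which it was not called were HMW and SeV, each given by itself. In all 63 conditions its 3 libraries lay above the 3 Ctrl libraries, and its median log2 fold change was 2.83. Of the tested genes, 1.46% were called higher in 61 or more conditions.

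Clec7a was called lower in 46 of the 63 conditions (3 single ligands, 14 pairs and 29 triplets) and higher in none. In 59 conditions all its libraries lay below Ctrl, and its median log2 fold change was -1.44. Of the tested genes, 4.05% were called lower in as many conditions. All 22 conditions with LPS were among the 46, as were 21 of 22 with CpGB and 20 of 22 with PAM, against 12 of 22 with Zymosan and 13 of 22 with HMW.

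Clec4n was called lower in 36 conditions and higher in none (median log2 fold change -1.14), and 6.67% of genes were called lower in as many. LPS was present in 21 of the 36 and Zymosan in 7. By adjusted p alone, Clec4n was lower in 52 conditions (11.8% of all tests) and higher in 2, which were Zymosan and HMW + Zymosan. HMW + Zymosan had the highest group mean, 1429 ± 277 CPM, and PAM + cGAMP + CpGB the lowest, 256 ± 46.9 CPM.

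Clec4d was called in none of the 63 conditions at the fold threshold. With no filter on low counts 4 conditions were called higher, and 2 conditions were without Ctrl replicate 1. By adjusted p alone (edgeR) it was lower in none and higher in 12 of the 63, a count near the 16.5% of all tests higher by that rule. All 12 contained PAM or Zymosan: 9 contained Zymosan and 7 contained PAM. Each of these 2 ligands is in 22 of the 63 conditions, and the make-up of the 12 was not tested. Its group means ran from 271 to 623 CPM, a range of 2.30-fold, against 12.0-fold for Clec4e.

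Clec5a was called higher in 24 conditions and lower in none, and 16.2% of genes were called higher in as many. Its highest group mean was 182 ± 32.3 CPM with PAM + HMW, and its lowest was 18.4 ± 8.88 CPM with LPS + Zymosan + CpGB, where the libraries held 7 UMIs in all. LPS was present in 2 of the 24 conditions, PAM in 9 and cGAMP in 13. Without Ctrl replicate 2, which held 1 UMI, 14 conditions were called, and 7 after thinning to equal totals.

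**Figure D2:**
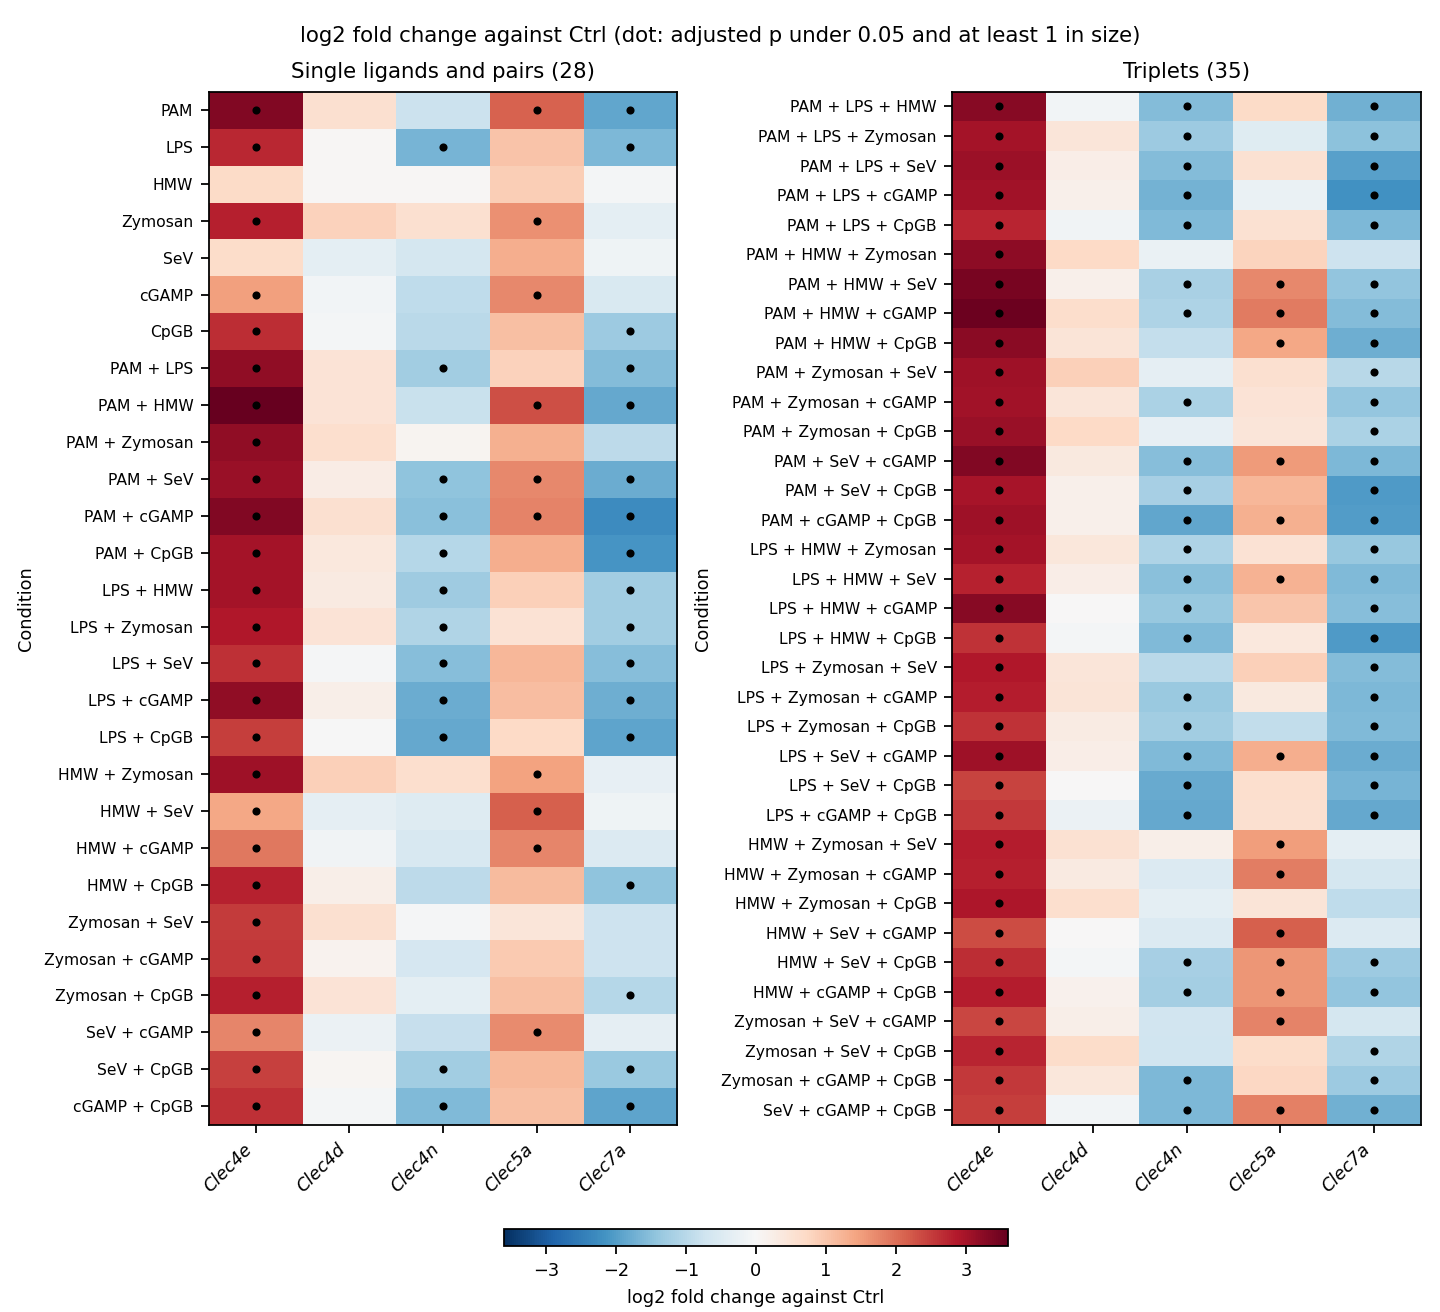
Log2 fold change against Ctrl (red higher, blue lower) of the 5 genes (columns) in the 28 single ligands and pairs (left) and the 35 triplets (right). Dots mark calls at an adjusted p under 0.05 with a fold change of at least 1 on the log2 scale. The Clec4e column is dotted in 61 of 63 conditions, the Clec7a column in 46, the Clec4n column in 36, the Clec5a column in 24 and the Clec4d column in none.

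Sorted by their group means, neighbouring groups rarely stood apart. A gap wider than the sum of the neighbours' SDs occurred 2 times among 63 for Clec4e, once for Clec4n, and for Clec4d, Clec5a and Clec7a at no place. For Clec4e the gaps lay at the low end, between SeV and Ctrl and between HMW + SeV (1007 ± 65.1 CPM) and HMW. For Clec4n it separated Zymosan from HMW + Zymosan + SeV (1082 ± 63.5 CPM). The middle of each order is therefore not resolved.

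Each ligand was next compared with and without its addition on the same background, over 22 backgrounds per ligand (Ctrl, 6 single ligands and 15 pairs). The fitted average over backgrounds shows which ligand moved each gene most, and the single backgrounds show how far the effect depended on what else was present.

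**Figure D3:**
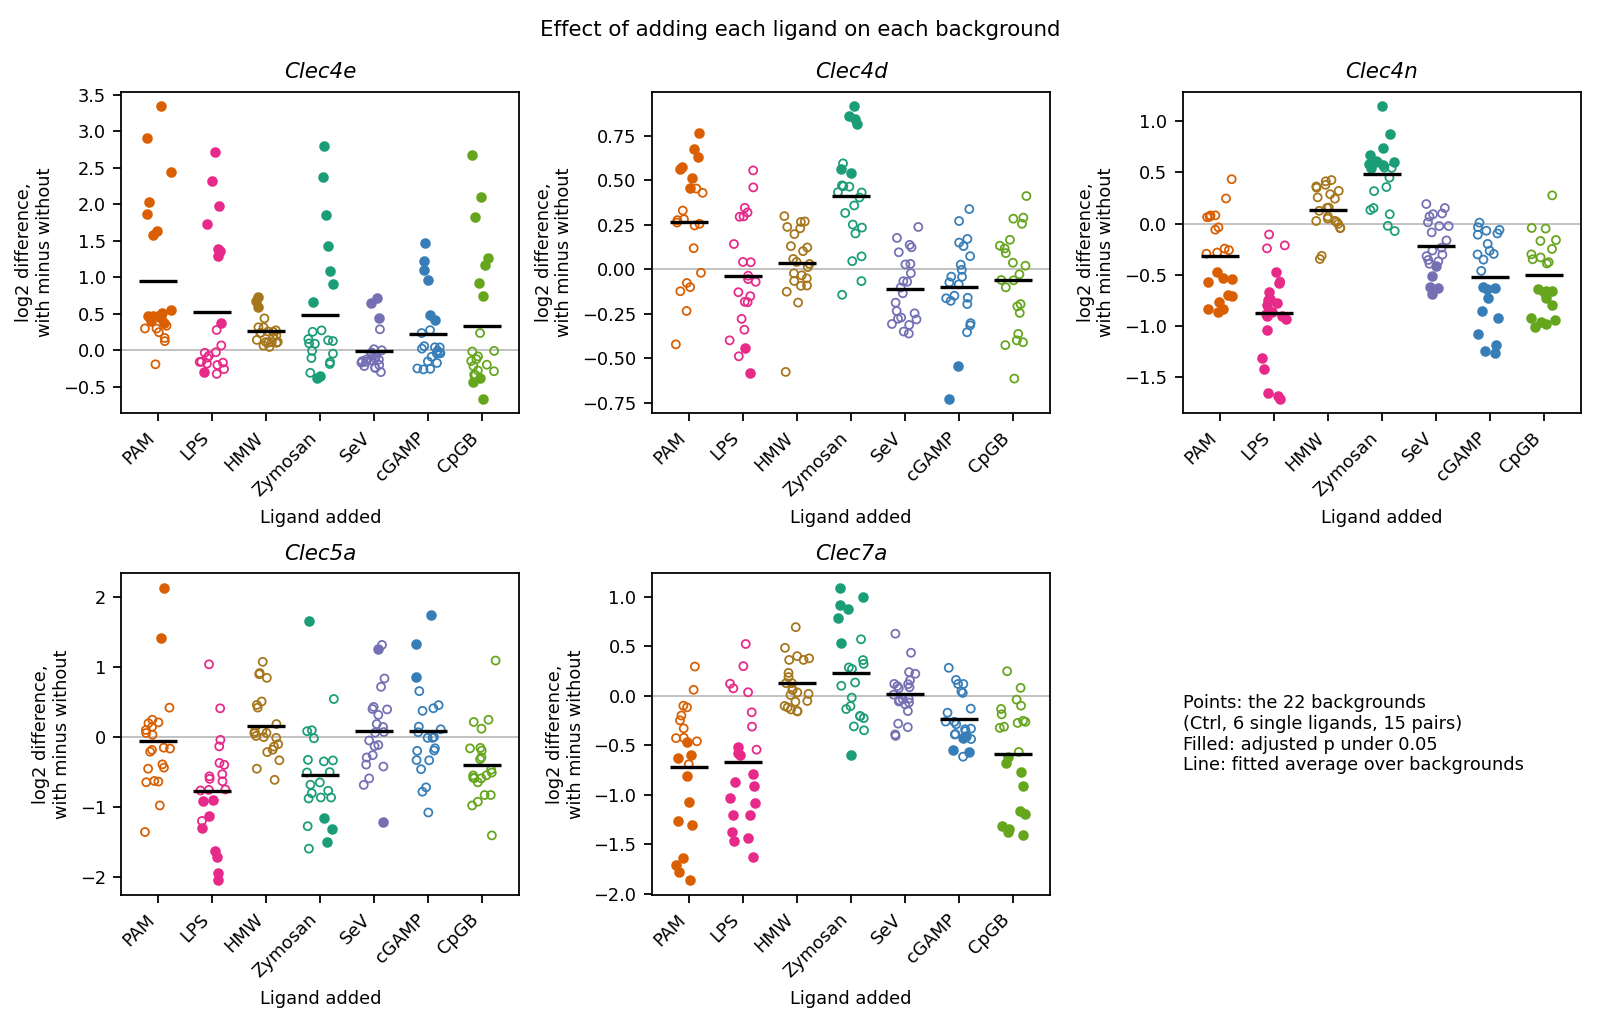
Log2 difference (vertical axes) between the group with a ligand and the group without it, for 7 ligands (horizontal axes) on 22 backgrounds each. Filled points pass an adjusted p of 0.05 and lines are fitted averages. For Clec4e the points of PAM reach 3.34 on Ctrl and spread down to -0.19, whereas for Clec4n all 22 points of LPS are below 0 and 20 of 22 points of Zymosan above it.

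For Clec4e the average effect was 0.94 for PAM (SE 0.024, adjusted p = 5.83e-98), 0.52 for LPS, 0.49 for Zymosan, 0.34 for CpGB, 0.26 for HMW and 0.23 for cGAMP. All 6 passed the test, in which 21.2% of genes had a positive average effect for PAM, 29.6% for LPS, 21.3% for Zymosan, 19.0% for CpGB, 7.94% for HMW and 28.2% for cGAMP. With library size as the only scaling the average for cGAMP was 0.09, and it passed the test there too. SeV had an average of -0.01 (adjusted p = 0.713). HMW raised the level on 22 of 22 backgrounds in sign and on 3 of them at the threshold, where 0.656% of tests were called higher. PAM passed on 15 backgrounds (4.21% of tests), LPS on 8 (8.73%), Zymosan on 7 (4.01%), CpGB on 7 (3.82%) and cGAMP on 6 (7.81%).

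On many backgrounds the sign for Clec4e was the opposite of the average. CpGB was positive on 8 of 22 backgrounds (median -0.10) and LPS on 10 (median -0.03), although their differences on Ctrl were 2.67 and 2.72. Zymosan was positive on 14 backgrounds (median 0.13), and adding Zymosan lowered 1.95% of all genes and backgrounds tested. Zymosan lowered it on LPS + cGAMP (log2 difference -0.37, adjusted p = 0.0300) and on PAM + HMW (-0.36, adjusted p = 0.00979). CpGB lowered it on 3 backgrounds (2.31% of tests were called lower), most on LPS + cGAMP (-0.66). The call for Zymosan on LPS + cGAMP was lost without Ctrl replicate 1 (adjusted p = 0.0699) or 2 (adjusted p = 0.0673), and that on PAM + HMW with no filter on low counts (adjusted p = 0.170).

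For Clec4n the average effect was -0.87 for LPS (adjusted p = 1.59e-58), -0.52 for cGAMP, -0.50 for CpGB, -0.32 for PAM and -0.22 for SeV, against 0.13 for HMW and 0.48 for Zymosan (adjusted p = 2.36e-28). All 7 passed the test, in which 29.3% of genes had a negative average effect for LPS, 29.7% for cGAMP, 17.7% for CpGB, 18.7% for PAM and 16.7% for SeV. A positive one was found for 21.3% of genes with Zymosan and 7.94% with HMW. LPS lowered Clec4n on 18 backgrounds at the threshold (5.74% of tests were called lower), and CpGB on 11 (2.31%), PAM on 10 (2.60%), cGAMP on 10 (4.40%) and SeV on 5 (1.49%). Zymosan raised it on 11 backgrounds (4.01% of tests were called higher) and lowered it on none at the threshold. The HMW average did not pass without replicate 3 of all groups (adjusted p = 0.111).

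The rise of Clec4n with Zymosan was largest on PAM + SeV. There the libraries without Zymosan held 310.3, 456 and 245 CPM and those with it 704, 878 and 705 CPM. The groups did not overlap, and the log2 difference was 1.15 (SE 0.173, adjusted p = 5.78e-08). On PAM alone Clec4n went from 552 ± 48.8 to 1034 ± 219.7 CPM (0.88, adjusted p = 3.66e-06), and on PAM + LPS the difference was -0.07 (adjusted p = 0.920). After thinning the difference on PAM was 0.63 (adjusted p = 0.128).

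For Clec7a the average effect was -0.72 for PAM (adjusted p = 9.72e-44), -0.67 for LPS, -0.59 for CpGB and -0.24 for cGAMP, and 0.23 for Zymosan and 0.12 for HMW. These 6 passed the test, and SeV (0.01, adjusted p = 0.832) did not. A negative average effect was found for 18.7% of genes with PAM, 29.3% with LPS, 17.7% with CpGB and 29.7% with cGAMP. A positive one was found for 21.3% with Zymosan and 7.94% with HMW. The HMW average was lost without replicate 1 (adjusted p = 0.0639) or 3 of all groups (adjusted p = 0.307), and the cGAMP average was -0.37 with library size as the only scaling. LPS lowered Clec7a on 14 backgrounds at the threshold (5.74% of tests were called lower), PAM on 11 (2.60%), CpGB on 10 (2.31%) and cGAMP on 4 (4.40%).

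Zymosan acted on Clec7a in both directions. On PAM, the libraries without Zymosan held 262, 256 and 278 CPM and those with it 526, 611 and 399.5 CPM, all higher (log2 difference 0.92, SE 0.189, adjusted p = 1.52e-04). On PAM + HMW the mean went from 266 ± 61.8 to 573 ± 31.4 CPM, the largest rise (1.09, adjusted p = 4.37e-08). Of the 6 backgrounds on which Zymosan raised Clec7a (4.01% of tests were called higher), 5 contained PAM and the other was HMW + CpGB. On SeV the mean went from 866 ± 67.8 to 552 ± 81.9 CPM (-0.60, adjusted p = 0.00940), the only background on which it fell at the threshold (1.95% of tests were called lower). On PAM + LPS the difference was 0.10 (adjusted p = 0.891). Without replicate 2 of all groups the differences on PAM (0.71, adjusted p = 0.0699) and on SeV (-0.46, adjusted p = 0.163) did not pass.

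**Figure D4:**
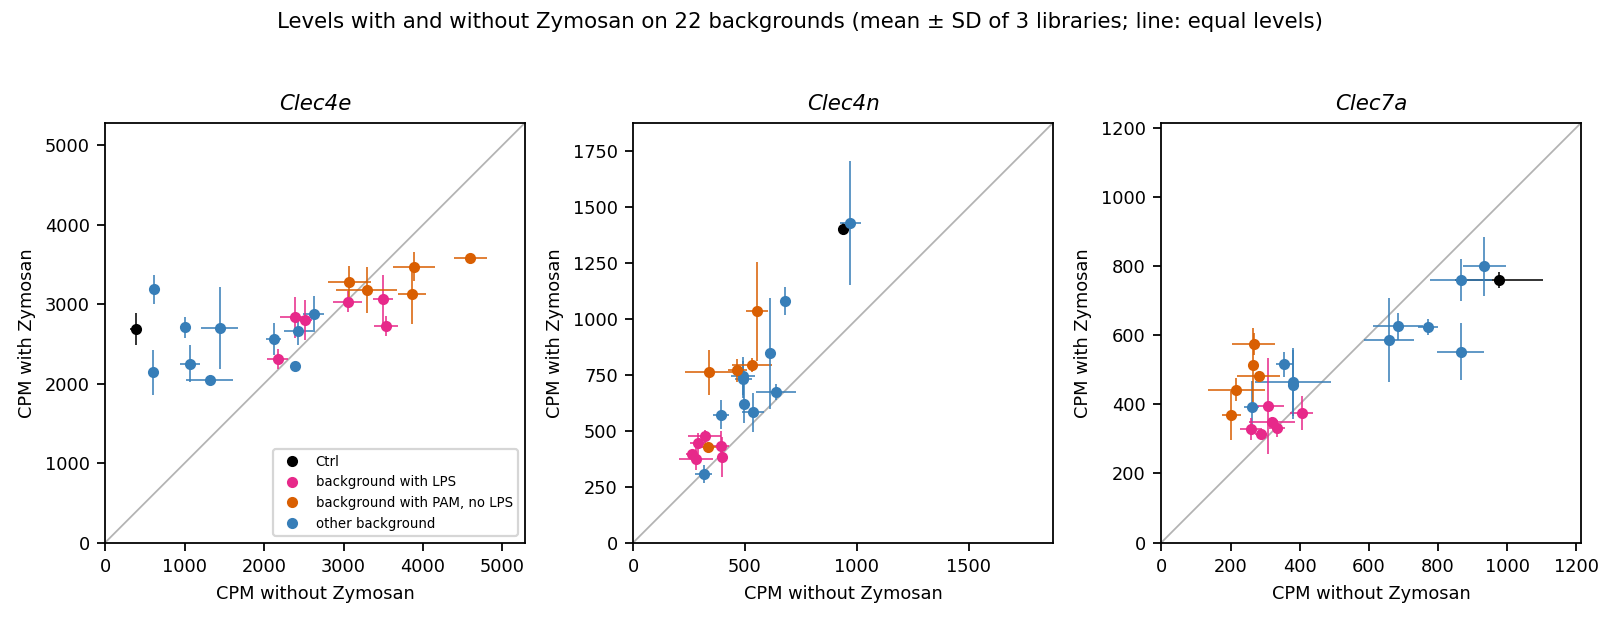
Group mean CPM without Zymosan (horizontal axes) and with it (vertical axes) for Clec4e, Clec4n and Clec7a on 22 backgrounds, with SD bars of 3 libraries, a line of equal levels, and colours for Ctrl (black), backgrounds with LPS (pink), with PAM and no LPS (orange) and others (blue). Clec4n lies above the line on 20 backgrounds by the fitted difference. Clec7a lies above it on PAM, from 266 to 512 CPM, and below it on SeV, from 866 to 552 CPM.

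For Clec4d the average effect was 0.41 for Zymosan (adjusted p = 2.21e-19) and 0.27 for PAM (adjusted p = 1.81e-09), with 20 and 16 of 22 backgrounds positive in sign. A positive average effect was found for 21.3% of genes with Zymosan and 21.2% with PAM. At the threshold Zymosan raised Clec4d on 6 backgrounds (4.01% of tests were called higher) and PAM on 7 (4.21%). Of the 7, the difference on SeV + cGAMP went from 0.57 to -0.12 after thinning to equal totals. SeV (-0.11) and cGAMP (-0.10) had small negative averages that passed and were lost with no filter on low counts (adjusted p = 0.164 and 0.212), and LPS, HMW and CpGB did not pass. A negative average effect was found for 16.7% of genes with SeV and 29.7% with cGAMP. After thinning the average for PAM was 0.15 (adjusted p = 0.0761). For Clec5a the average effect was -0.77 for LPS (adjusted p = 4.17e-15; 29.3% of genes had a negative effect), -0.55 for Zymosan (20.4%) and -0.40 for CpGB (17.7%), although all 3 differences on Ctrl were positive. LPS lowered Clec5a on 8 backgrounds at the threshold (5.74% of tests were called lower). The largest fall with Zymosan that passed was on PAM + HMW, where the libraries went from 204, 197 and 144 CPM to 66.4, 58.4 and 62.2 CPM (-1.50, adjusted p = 1.27e-05).

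No pair put any of the 5 genes above or below both of its single ligands by a log2 difference of at least 1 (edgeR; 0.353% of all gene and pair tests were above both by that rule and 0.0504% below). Without the fold threshold, Clec4e was above both in HMW + SeV and in LPS + cGAMP, and Clec4n was below both in PAM + SeV and in cGAMP + CpGB, where 0.805% of tests were above both and 0.0999% below. For Clec4e, HMW + SeV gave 1082, 969 and 969 CPM, above all libraries of HMW (576 to 650.2 CPM) and SeV (549 to 667 CPM), with differences of 0.71 and 0.74 (adjusted p = 6.77e-04 for the larger p). LPS + cGAMP gave 3457, 3709 and 3430.0 CPM, above LPS by 0.49 and above cGAMP by 1.74 (adjusted p = 0.00171).

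The interaction of a pair is its log2 change against Ctrl less the sum of the changes with either ligand by itself, and it is 0 where these changes are additive in log2. For Clec4e 14 of 21 pairs had a negative interaction and none a positive one, where 3.50% of all gene and pair tests were negative. The lowest was PAM + CpGB (-3.01, SE 0.186, adjusted p = 9.27e-36): the pair held 2796, 3339 and 3088 CPM, below all 3 libraries of PAM alone and above those of CpGB alone. PAM + Zymosan (-2.97), LPS + CpGB (-2.89) and PAM + LPS (-2.87) were close to it. The 7 pairs without a called interaction were HMW with each of the other 6 ligands, and SeV + cGAMP.

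For Clec7a 4 pairs had a positive interaction, where 1.08% of tests were positive, and none a negative one. PAM + LPS had the highest (1.92, SE 0.263, adjusted p = 5.44e-10): the pair held 255, 390.0 and 316 CPM, overlapping the libraries of either ligand alone. PAM + Zymosan followed (1.27, adjusted p = 9.56e-05), then PAM + CpGB (1.05) and LPS + CpGB (1.04). For Clec4n 6 pairs were positive, and the highest was again PAM + LPS (1.20, adjusted p = 7.19e-05). Only 1, 2 and 3 of the 6 were called without Ctrl replicate 1, 2 and 3 in turn. For Clec5a 7 pairs were negative, from -1.92 to -2.54, and Clec4d had none. Every interaction of Clec5a rests on the 9 UMIs of its Ctrl libraries, and without Ctrl replicate 2 there were 2 negative pairs. For Clec7a, PAM + CpGB and LPS + CpGB did not pass with no filter on low counts (adjusted p = 0.118 and 0.0618).

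Three-way interactions (the triplet minus 3 pairs plus 3 single ligands minus Ctrl) were positive for Clec4e in 12 of 35 triplets, where 0.803% of tests were positive. Without replicate 3 of all groups 7 passed. PAM + Zymosan + CpGB had the highest (2.93, SE 0.242, adjusted p = 1.99e-22). That triplet was at 3281 ± 204 CPM of Clec4e, against 3474 ± 181 CPM with PAM + Zymosan and 3891 ± 261 CPM with PAM alone. The pair interactions were negative for PAM + Zymosan (-2.97), PAM + CpGB (-3.01) and Zymosan + CpGB (-2.68). The positive three-way value offsets these and does not mark a level above PAM alone. For Clec7a PAM + LPS + Zymosan was the one that passed (-1.53, SE 0.364, adjusted p = 0.00521; 0.130% of tests were negative). Its triplet held 342, 366 and 341 CPM, against 526, 611 and 399.5 CPM with PAM + Zymosan. For Clec5a Zymosan + SeV + cGAMP passed (3.42, SE 0.808, adjusted p = 0.0263), where the triplet was at 121 ± 41.8 CPM, and for Clec4d and Clec4n no triplet did. The Clec5a call was lost without Ctrl replicate 2 (adjusted p = 0.107) or 3 (adjusted p = 0.0557), and that of Clec7a without replicate 1 (adjusted p = 0.126) or 2 of all groups (adjusted p = 0.607).

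Of 30 genes for adaptors, kinases and other signalling partners of these receptors, 25 were tested. With PAM 6 were called higher and 1 lower, where 8.01% and 5.89% of all tested genes were called (median log2 fold change 0.67, against 0.03 over all tested genes). With LPS 4 were higher and 2 lower, shares near the 14.6% and 9.60% of all genes (median 0.59 against -0.06). With Zymosan 3 were higher and none lower, where 4.43% and 1.82% of all genes were called (0.22 against 0.02), and with HMW none was called, where 0.953% and 0.0212% were (0.02 against 0.03).

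The adaptor genes moved in opposite directions with LPS. Fcer1g, the chain used by Clec4e, Clec4d and Clec4n, averaged 1891 ± 301 CPM (SD, n = 3) without ligand and 3478 ± 135 CPM with LPS (log2 fold change 0.87, adjusted p = 2.07e-09). By adjusted p alone it was higher in 52 of 63 conditions (16.5% of all tests were), and 5 reached the fold threshold. Tyrobp, the chain used by Clec5a, was at 2030.0 ± 298 CPM in Ctrl and 1126 ± 95.2 CPM with LPS (-0.86, adjusted p = 1.84e-11). It was lower by adjusted p alone in 60 conditions (11.8% of all tests were) and reached the fold threshold in none. Averaged over backgrounds, both fell with Zymosan (log2 difference -0.14 for Fcer1g, adjusted p = 2.49e-06, and -0.091 for Tyrobp, adjusted p = 6.09e-04), and neither passed with HMW (adjusted p = 0.519 and 0.932). With Zymosan 20.4% of genes had a negative average effect. Fcer1g rose on average with LPS (0.43), CpGB (0.35), PAM (0.24), SeV (0.078) and cGAMP (0.064). Tyrobp also fell with LPS (-0.23), PAM (-0.22), cGAMP (-0.17) and CpGB (-0.14), and its SeV average did not pass (adjusted p = 0.189). Syk, the kinase shared by all 5 receptors, was called higher with PAM (1.29, adjusted p = 3.04e-11; 8.01% of genes called higher). It was called higher in 5 of 63 conditions in all, where 14.3% of all tests were. By adjusted p alone it was higher in 37 conditions (16.5% of all tests were) and lower in 1 (11.8%). Card9 did not pass the filter.

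Malt1, the protease of the Card9 complex, was called higher in 60 conditions and went from 78.7 ± 17.4 CPM in Ctrl to 395 ± 56.8 CPM with PAM (2.33, adjusted p = 1.01e-12). Nlrp3, an inflammasome sensor, was called higher in 62 conditions, and the Src family kinase Lyn in 58. On the other side, Egr2, an early response transcription factor, was called lower in 38 conditions and the kinase Fgr in 34. These genes were named because they were called in many conditions, so their counts are a description, beside 14.3% of all gene and condition tests called higher and 9.03% lower.

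Of 36 other C-type lectin genes, 10 were tested. With PAM 1 was called higher and 1 lower (median log2 fold change -0.61, against 0.03 over all genes), with LPS 2 and 2 (-0.66 against -0.06), with Zymosan 1 and 2 (-0.82 against 0.02) and with CpGB 3 and 1 (0.14 against -0.03). In the same order 8.01%, 14.6%, 4.43% and 10.8% of all genes were called higher and 5.89%, 9.60%, 1.82% and 6.27% lower, so with 10 genes these counts say little about the list. The 4 named next were chosen as those called in the most conditions, beside 14.3% of all tests called higher and 9.03% lower. Cd69, an early activation marker, was called higher in 56 conditions and went from 47.0 ± 24.7 CPM in Ctrl to 664 ± 162 CPM with cGAMP (3.84, adjusted p = 1.12e-20). With PAM it stood at 84.1 ± 36.7 CPM (0.79, adjusted p = 0.341). Olr1, a receptor for oxidised low-density lipoprotein and a neighbour of Clec7a on chromosome 6, was called higher in 49 conditions and was highest among single ligands with Zymosan (420.2 ± 79.0 CPM, 2.81, adjusted p = 1.01e-12).

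Clec4a2, an inhibitory lectin receptor gene, was called lower in 52 conditions, with 285 ± 115 CPM in Ctrl and 59.7 ± 10.4 CPM with LPS (-2.18, adjusted p = 2.11e-09). Mrc1, the mannose receptor, was called lower in 37 conditions and stood at 203 ± 42.6 CPM in Ctrl and 55.9 ± 8.24 CPM with PAM (-1.83, adjusted p = 8.32e-06). Mrc1 is also on the list of macrophage markers.

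The 5 genes did not follow one pattern. Over the 64 group means of log2 CPM, Pearson's r was 0.80 between Clec4n and Clec7a, 0.56 between Clec4e and Clec4d, -0.64 between Clec4e and Clec7a and 0.43 between the neighbours Clec4d and Clec4n. Groups share libraries of one design, so these values are descriptions. By the same measure the genes most like Clec4e were Malt1 (0.93), Plek (0.89) and Atp6v1e1 (0.88). Those most like Clec7a were Psap (0.92), Lipa (0.91) and Adam8 (0.90), and those most like Clec4n were Creg1 (0.91), Taldo1 (0.91) and P4hb (0.90). For Clec4d they were Mcoln2 (0.81), Met (0.81) and Esd (0.80), and for Clec5a Ccdc88b (0.73), Rp2h (0.67) and Slc16a10 (0.64). The order depended on the groups and the scaling: with pairs and triplets only Cd14 (0.85) came before Malt1 (0.84) for Clec4e, and with library size alone Hspa9 and Txnrd1 (0.83 each) followed Mcoln2 for Clec4d.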

How the data were processed

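RNA of 192 wells of mouse dendritic cells was measured, 3 libraries in each of 64 groups taken from the sample labels. The authors deposited UMI counts per gene symbol as whole numbers without normalization. Per the submitters' processing notes the reads were aligned with BWA 0.7.15 to mm10 (GRCm38). How UMIs were collapsed, and how reads matching several genes were treated, is not given in the sources used here, so counts of related lectin genes carry that uncertainty. Per the labels' protocols, cDNA was barcoded by reverse transcription with template switching and pooled before PCR.

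Tests were run with edgeR 4.0.16 under R 4.3.3. filterByExpr by group kept 4720 of 23481 genes with 95.7% of all UMIs. Library sizes were the sums over these genes, scaled by TMM. A single quasi-likelihood fit with 1 coefficient per group covered all 192 libraries (128 residual degrees of freedom, common biological coefficient of variation 10.3%). Each contrast had its own Benjamini-Hochberg adjustment over the 4720 genes. For pairs against both single ligands the larger of both p-values was adjusted. SDs are over 3 libraries, and SEs are those of the fitted contrast. Patterns were compared on log2 CPM with a prior count of 2. No libraries were identical, and no replicate pair differed by less than sampling noise (chi-square per degree of freedom at least 1.13 over 192 pairs). The script was tested on simulated counts.

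The 5 genes, the lists and the rules were chosen with earlier results of these data known. The signalling list names Fcer1g, Tyrobp, Syk and Card9 always, plus the 4 other genes called in the most conditions; of the other lectins the 4 called in the most conditions are named, and for each receptor gene the 3 genes most alike. Egr2 and Fgr were named after their values were seen, as genes of the list called lower in many conditions. Some genes that these rules select are not reported here. Promoter windows come from RefSeq (GRCm38.p6), in which 4 of the 5 genes matched. Alternatives were RLE or no scaling, no filter, DESeq2 1.42.0, a replicate block, thinning to equal totals, single ligand and Ctrl alone, no fold threshold, and leaving out replicates.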

Additional observations from a re-analysis of the deposited data

How the results depend on the processing

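The scaling moved all genes together: against TMM, the middle log2 fold change of the tested genes shifted, over the 63 conditions, by a median of -0.16 with RLE factors or DESeq2 and by -0.36 with library size alone. RLE factors, library size alone and DESeq2 gave 3 single ligands that lowered Clec4n in place of 1, and thinning to equal totals gave 2. The Clec4n fold change with cGAMP was then -1.04 (RLE and DESeq2), -1.16 (library size alone) and -1.01 (thinned), and with CpGB -1.06 (RLE and DESeq2) and -1.18 (library size alone). With library size alone, 1 ligand had a negative average effect on Clec4e in place of 0, 4 on Clec4d in place of 2, and 1 had a positive average effect on Clec7a in place of 2 (HMW, 0.10). With no fold threshold 2 pairs were above both single ligands for Clec4e, Clec4d was called higher with 2 single ligands and in 12 conditions, and Clec4n was called lower with 5 single ligands, higher with 1 and in 2 conditions, and below both single ligands in 2 pairs.

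With no filter on low counts Clec4d rose with 1 single ligand (Zymosan, 1.02) and in 4 conditions, 0 ligands had a negative average effect on it (SeV -0.093, cGAMP -0.079), and 1 pair interaction was negative in place of 0. Clec4n then had 1 positive pair interaction, Clec5a differed in 2 of 21 comparisons of single ligands in place of 4, and Clec7a had 2 positive pair and 0 negative three-way interactions. DESeq2 lost the Clec5a call with Zymosan (1.57, adjusted p = 0.0664).

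Thinning every library to the smallest total (46564 UMIs) shows what depth limits. Clec5a was then called higher with 1 single ligand (PAM 1.75, adjusted p = 0.0663, and Zymosan 1.12, adjusted p = 0.528, were lost) and in 7 of 63 conditions, with 0 negative pair interactions, 0 positive three-way interactions and 0 differences between single ligands. Clec4d differed in 4 of 21 comparisons of single ligands in place of 10, and 1 ligand raised and 1 lowered it on average, since PAM (0.15) and SeV (-0.11) were lost. Adding PAM on SeV + cGAMP changed sign for Clec4d, from 0.57 to -0.12. Clec4n had 1 positive average effect (HMW 0.12 was lost), 0 positive pair interactions and 1 pair below both single ligands. Clec7a had 1 positive average effect (HMW 0.19 was lost) and 0 negative three-way interactions. Thinning leaves fewer counts by construction, and no other cause was tested.

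Leaving out each replicate in turn gave these ranges. For Clec4e the positive three-way interactions numbered 7 to 16. For Clec4d the average effects ran from -0.12 to -0.084 (SeV) and from -0.12 to -0.089 (cGAMP), with 0 to 2 negative averages, 0 to 2 conditions called higher and 6 to 10 differences between single ligands. For Clec4n the CpGB fold change ran from -1.02 to -0.76 and the HMW average from 0.12 to 0.15, with 1 to 2 positive averages and 1 to 3 positive pair interactions. For Clec5a the fold change with Zymosan ran from 1.23 to 2.35 and with cGAMP from 1.42 to 2.15, with 1 to 3 single ligands and 14 to 23 conditions called higher, 0 to 1 positive three-way and 0 to 6 negative pair interactions and 1 to 4 differences between single ligands. For Clec7a the HMW average ran from 0.093 to 0.17, with 1 to 2 positive averages, 2 to 5 positive pair interactions and 0 to 1 negative three-way interactions.

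The correlation of Clec4e and Clec7a over groups was -0.48 with pairs and triplets only, against -0.64 with all groups, and Clec4e reached -0.080 with Clec4n and -0.082 with Clec5a there. With library size alone it was 0.41 for Clec4e and Clec4d, 0.61 for Clec4d and Clec4n, 0.22 for Clec4d and Clec7a, 0.28 for Clec4n and Clec5a and 0.26 for Clec5a and Clec7a.

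The same replicate number did not pair libraries of different groups (mean correlation of deviations 0.0083 for the same number, -0.0041 for others, lowest -0.293, and 0.116% of same-number pairs over 0.1). The fit with a replicate block kept direction and call, or a count within 1.5 times, in all 113 main values and counts of the 5 genes (Clec4e with PAM 3.34, and 61, 46, 36 and 24 conditions called for Clec4e, Clec7a, Clec4n and Clec5a). Only counts of single backgrounds moved further, such as 2 in place of 1 on which LPS lowered Clec4e.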
